A study of Mus musculus with 2 samples.

Results

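The LIM homeodomain genes Lhx1, Lhx2, Lhx3, Lhx4, Lhx5, Lhx6, Lhx8, Lhx9, Isl1 and Isl2 were taken by name from the gene tables of the newborn mouse midbrain, 10 of the 43346 annotated genes. All 10 symbols matched 1 gene each. The family's other 2 genes, Lmx1a and Lmx1b, were not among them and are given for comparison. The series holds 1 group: midbrain of mice of strain B6NTac;B6NCrl/Lap at postnatal day 0, males and females pooled, with no transgene or treatment in the labels. It was measured in 2 libraries from independent isolates. Replicate 1 came from a pool of 15 animals, and the pool size of replicate 2 is not stated. Per the labels, the libraries were strand-specific, depleted of ribosomal RNA, limited to RNA over 200 nucleotides, and sequenced from each end for 101 bases. Each library is a pool of many cell types, so a level cannot be split into the number of cells that express a gene and the RNA per cell. With 1 group there is no comparison of conditions. The questions are which members the tissue expressed, in what order, through which transcripts, and whether the isolates gave the same values.

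LIM homeodomain proteins carry a pair of LIM domains, zinc-binding folds that hold other proteins, ahead of a homeodomain, a DNA-binding fold whose last helix, the recognition helix, lies in the major groove. The LIM domains bind the adaptors Ldb1 and Ldb2, which join factors into larger complexes with single-stranded DNA-binding proteins of the Ssbp family. LIM-only (Lmo) proteins compete for the same adaptors. In the developing nervous system the combination of factors a cell makes marks which type of neuron it becomes. Lhx2 and Lhx9 are known from tectum, thalamus and forebrain, and Lhx1 and Lhx5 from inhibitory neurons of the brainstem and from Purkinje cells. Isl1, Isl2, Lhx3 and Lhx4 are known from motor neurons. Lhx6 and Lhx8 are known from interneurons and cholinergic neurons of the ventral forebrain.

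The genes form 5 pairs of closest relatives, which are most alike in the homeobox, the part of each gene that encodes the homeodomain. The 180-base homeobox, 60 codons, is printed for the pairs whose expression the results turn on, from GENCODE M21 transcripts on GRCm38, 5′ to 3′ on the coding strand. Except in Lhx9, capitals mark the bases that differ from the closest relative. In Lhx9, capitals mark the bases that are not in Lhx9-203, its leading transcript.
Lhx9, chr1:138831583-138832839, minus strand, 2 exons: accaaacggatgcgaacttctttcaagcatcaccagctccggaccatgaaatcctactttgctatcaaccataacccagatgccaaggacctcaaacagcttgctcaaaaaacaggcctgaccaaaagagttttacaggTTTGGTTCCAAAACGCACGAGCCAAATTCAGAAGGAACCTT
Lhx2, chr2:38359966-38368883, plus strand, 2 exons: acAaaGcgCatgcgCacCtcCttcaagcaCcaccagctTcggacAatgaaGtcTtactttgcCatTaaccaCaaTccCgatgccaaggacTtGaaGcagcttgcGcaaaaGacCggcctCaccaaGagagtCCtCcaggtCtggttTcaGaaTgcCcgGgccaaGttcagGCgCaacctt
Lhx1, chr11:84520408-84521828, minus strand, 2 exons: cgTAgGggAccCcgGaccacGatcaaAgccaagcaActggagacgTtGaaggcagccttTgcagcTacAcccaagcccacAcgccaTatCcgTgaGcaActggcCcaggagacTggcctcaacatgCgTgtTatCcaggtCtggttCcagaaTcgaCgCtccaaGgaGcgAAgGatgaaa
Lhx5, chr5:120435491-120436349, plus strand, 2 exons: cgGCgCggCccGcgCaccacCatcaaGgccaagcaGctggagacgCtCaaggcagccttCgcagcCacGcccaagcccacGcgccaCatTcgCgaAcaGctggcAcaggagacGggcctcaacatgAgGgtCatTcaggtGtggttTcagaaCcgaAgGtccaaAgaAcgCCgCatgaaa
Isl1, chr13:116303091-116303270, minus strand, 1 exon: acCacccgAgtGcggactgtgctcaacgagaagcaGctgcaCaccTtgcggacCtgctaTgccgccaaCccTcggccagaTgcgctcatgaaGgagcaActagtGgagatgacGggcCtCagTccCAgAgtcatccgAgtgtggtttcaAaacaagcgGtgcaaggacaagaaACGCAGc
Isl2, chr9:55544135-55544314, plus strand, 1 exon: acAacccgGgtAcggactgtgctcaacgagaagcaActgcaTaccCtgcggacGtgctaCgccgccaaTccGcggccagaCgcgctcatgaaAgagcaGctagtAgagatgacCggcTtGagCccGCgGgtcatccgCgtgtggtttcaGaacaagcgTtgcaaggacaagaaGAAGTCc
Lhx2 and Lhx9 differed at 37 of these bases and encoded the same 60 residues, and so did Lhx1 and Lhx5, which differed at 36. Isl1 and Isl2 differed at 30 bases and 1 residue, Lhx3 and Lhx4 at 37 bases and 3 residues, and Lhx6 and Lhx8 at 46 bases and 4 residues. Identity of the homeodomain was thus 93.3 to 100% within the 5 pairs, against 40 to 70% over the 40 other pairs of members. Over the whole proteins it was 74.9% for Lhx1 and Lhx5, 72.5% for Isl1 and Isl2, 67.8% for Lhx2 and Lhx9, 61.8% for Lhx3 and Lhx4, and 53.9% for Lhx6 and Lhx8. The longest run of bases shared exactly by any transcripts of a pair was 23, against a read length of 101 bases.

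Lhx9, Lhx2, Lhx1 and Lhx5 made up most of the LIM homeodomain RNA of the tissue. Levels are in TPM, a scale of transcript abundance that corrects for transcript length and library depth and allows genes to be compared. Over the 10 members TPM summed to 59.4 in replicate 1 and 56.5 in replicate 2, and the leading 4 held 96.3% and 94.6% of it. Lhx9 alone held 45% and 41.8%. With Lmx1a and Lmx1b added, the family summed to 61.7 and 59.2 TPM, of which the same 4 genes held 92.7% and 90.3%.

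Of the 10 members 5 were detected, meaning at least 1 TPM in both libraries: Lhx9, Lhx2, Lhx1, Lhx5 and Isl1. The same threshold was met by 27.7% of all 43346 genes, by 53.7% of 21389 protein-coding genes and by 34.3% of 201 homeobox genes. Protein-coding genes here and below leave out the mitochondrially encoded, clustered histone and globin genes. The members' share, 5 of 10, thus lies close to that of coding genes in general. Among the homeobox genes Lhx9 ranked 3, after Meis2 at 26.4 ± 0.820 TPM and Cux1 at 26.1 ± 2.26 TPM (SD, n = 2), whose ranges over the libraries overlapped with that of Lhx9. Lhx2 ranked 11, Lhx1 26, Lhx5 35 and Isl1 56. The 5 other members ranked between 93 and 149, and 42 homeobox genes had no count in either library.

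**Figure D1:**
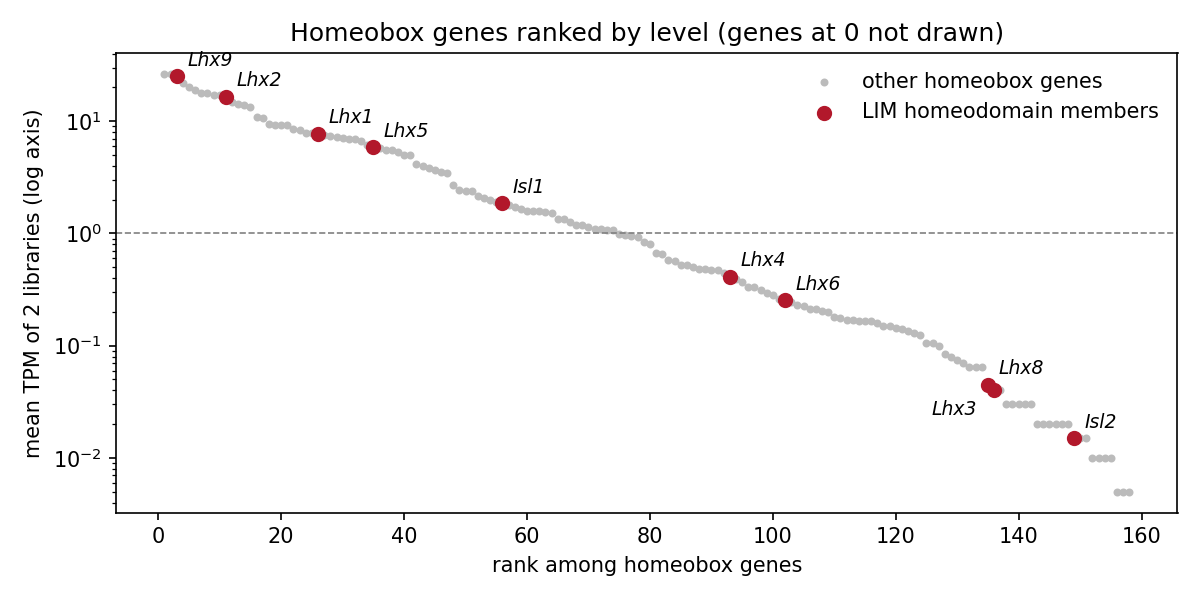
Mean TPM of the 2 libraries (log axis) for the homeobox genes in order of level, with members in red and genes at 0 not drawn. Lhx9 stands at rank 3 and Lhx2 at 11, Isl1 is the lowest member above the dashed line at 1 TPM, and Lhx8, Lhx3 and Isl2 lie at ranks 135, 136 and 149.

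Lhx9 (chr1:138825186-138848577, minus strand), the highest member, stood at 26.69 TPM on 7580 counts in replicate 1 and 23.59 TPM on 10987 counts in replicate 2. Its mean was 25.1 ± 2.19 TPM (SD, n = 2), above 92.9% of protein-coding genes. Lhx2 (chr2:38339281-38369733, plus strand), its closest relative, stood at 16.51 TPM on 1859 counts and 16.52 TPM on 3250 counts. That is a mean of 16.5 ± 0.00707 TPM (n = 2) and the 87.7th percentile of coding genes. Lhx2 was below Lhx9 in both libraries, and the deposited credibility bounds of the genes, 15.60 to 17.80 for Lhx2 and 25.72 to 27.41 for Lhx9 in replicate 1, did not meet.

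Lhx1 (chr11:84518284-84525535, minus strand), known from head formation in the embryo and from inhibitory neurons, stood at 7.29 TPM on 1371 counts and 8.22 TPM on 2596 counts, a mean of 7.76 ± 0.658 (n = 2). Lhx5 (chr5:120431699-120441223, plus strand), known from the hippocampus and, with Lhx1, from Purkinje cells, stood at 6.65 TPM on 1192 counts and 5.10 TPM on 1692 counts, a mean of 5.88 ± 1.1 (n = 2). Lhx1 was higher than Lhx5 in both libraries, but in replicate 1 the bounds of Lhx1, 6.71 to 8.09, met those of Lhx5, 6.22 to 6.97.

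Isl1 (chr13:116298281-116309689, minus strand), the islet factor of motor, sensory and other neurons, was near the threshold at 1.45 TPM on 140 counts and 2.26 TPM on 255 counts, a mean of 1.85 ± 0.573 (n = 2). Lhx4 (chr1:155698031-155751684, minus strand), a motor neuron and pituitary factor, stood at 0.32 TPM on 127 counts and 0.50 TPM on 213 counts. Its counts were close to those of Isl1, spread over an effective length of 5234 and 2996 bases against 1262 and 796 for Isl1. Lhx6 (chr2:36081953-36105408, minus strand), a factor of cortical interneurons, stood at 0.40 TPM on 91 counts and 0.11 TPM on 49 counts.

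The last 3 members were at the limit of the depth. Lhx8 (chr3:154306294-154330659, minus strand), a factor of forebrain cholinergic neurons, had 0 counts in replicate 1 and 18 in replicate 2, or 0.09 TPM. Lhx3 (chr2:26200212-26208289, minus strand), a motor neuron and pituitary factor, had 1 count and 16 counts, or 0.01 and 0.07 TPM. Isl2 (chr9:55538672-55546180, plus strand), the partner of Isl1 in motor neurons, had 3 counts and 0 counts. With 0 counts, chance still permits a true mean of about 3 counts, equal to 0.0643 CPM (counts scaled to library size) in replicate 1 and 0.0412 CPM in replicate 2. None of the 3 can therefore be called absent.

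In order of mean TPM the members ran Lhx9, Lhx2, Lhx1, Lhx5, Isl1, Lhx4, Lhx6, Lhx8, Lhx3, Isl2. At 6 of the 9 steps the ranges of the neighbours over the 2 libraries did not overlap. They overlapped between Lhx4 and Lhx6, between Lhx8 and Lhx3, and between Lhx3 and Isl2, so these neighbours have no settled order. Among the steps with ranges apart, the mean fell 5.67-fold from Lhx6 to Lhx8, 4.51-fold from Isl1 to Lhx4 and 3.18-fold from Lhx5 to Isl1. The step from Lhx6 to Lhx8 rests on replicate 1, where Lhx8 had 0 counts. In replicate 2 Lhx6 stood at 0.11 TPM and Lhx8 at 0.09 TPM, and their bounds, 0.11 to 0.26 and 0.07 to 0.20, met.

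**Figure D2:**
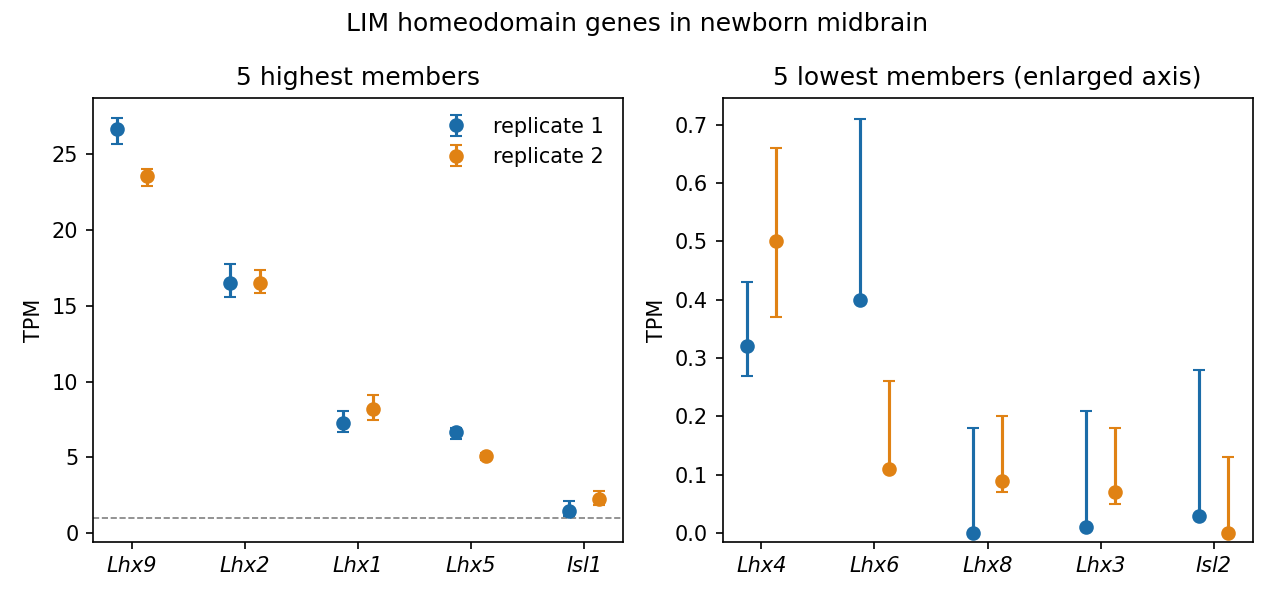
TPM of each member in replicate 1 (blue) and replicate 2 (orange), with bars for the authors' credibility bounds, drawn from the value itself where it lies outside them, and a dashed line at 1 TPM. The left panel holds Lhx9, Lhx2, Lhx1, Lhx5 and Isl1, and the right panel, on an enlarged axis, the 5 members below 1 TPM in both libraries.

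A large part of Lhx9 RNA was assigned to transcripts that encode the LIM domains without a whole homeodomain. Counting only whole-homeobox coding transcripts, a measure added after the values were seen, reversed the order of Lhx9 and Lhx2. The deposited transcript tables divide each gene's level among its annotated transcripts. Lhx9-203 led in both libraries, with 11.68 TPM on 3826.40 counts in replicate 1 and 9.34 TPM on 5661.17 counts in replicate 2, or 43.76% and 39.59% of the gene. Lhx9-201 added 3.49 and 1.76 TPM. As the Lhx9 sequence above shows, these transcripts carry the first 139 bases of the homeobox, 46 whole codons, and lack the last 41, which encode most of the recognition helix. In their place the coding sequence runs on for 53 other bases to its end, and both LIM stretches remain. Lhx9-202, with 7.82 and 4.57 TPM, and Lhx9-204, with 1.69 and 6.63 TPM, carry the whole homeobox.

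Coding transcripts of Lhx9 without the whole homeobox summed to 56.8% of its TPM in replicate 1 and 47.2% in replicate 2, and to 66.9% and 62.3% of its counts. Those with the whole homeobox held 35.6% and 47.5% of TPM and 29.7% and 35.1% of counts. By counts the form with the partial homeobox was thus the larger in both libraries, and by TPM the forms were nearly equal in replicate 2. Counts are not corrected for length. Lhx9-203 and Lhx9-201, at 4551 and 4937 bases, are longer than Lhx9-202 and Lhx9-204, at 3645 and 2065 bases. Between the whole-homeobox transcripts the libraries did not give the same split, since Lhx9-204 held 6.31% of the gene in replicate 1 and 28.10% in replicate 2. Counts were shared out by the authors' estimate among transcripts with long stretches in common, and how sure that division is was not tested.

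Restricted to coding transcripts with the whole homeobox, Lhx2 stood at 12.69 and 12.54 TPM and Lhx9 at 9.51 and 11.20 TPM. On this measure Lhx2 was the higher of the pair in both libraries, by 0.41 and 0.16 on the log2 scale, the reverse of the order over all transcripts. Over all coding transcripts, with or without the whole homeobox, Lhx9 stayed the higher, at a mean log2 ratio of -0.81 for Lhx2 over Lhx9. Lhx2 itself was led by Lhx2-203, with 54.87% and 59.96% of the gene, and its whole-homeobox coding transcripts held 76.8% and 75.9% of TPM. Lhx5 has 1 annotated transcript in the deposited tables, with the whole homeobox. Lhx1 was led by Lhx1-201 in both libraries, with 57.94% of the gene in replicate 1. Its whole-homeobox coding transcripts held 100% and 74.3% of TPM, and 100% and 98.3% of counts. Among them Lhx1-204, at 42.06% and 17.34% of the gene, carries 1 of the 2 LIM stretches of Lhx1.

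Isl1 passed 1 TPM only with transcripts annotated as noncoding. Its coding transcripts summed to 0.85 TPM in replicate 1 and 0.53 TPM in replicate 2. Isl1-204, a processed transcript of 588 bases that contains the homeobox, went from 3.88 counts and 11.35% of the gene to 62.25 counts and 63.16%. On coding transcripts alone 4 members, Lhx9, Lhx2, Lhx1 and Lhx5, were detected. This alternative was chosen after the values were seen. Short transcripts take a high share of TPM from few counts, as also in Lhx1-202, a transcript of 382 bases at 0 counts in replicate 1 and 27.22 counts in replicate 2, and in Lhx4-202, at 0 and 22.46 counts.

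**Figure D3:**
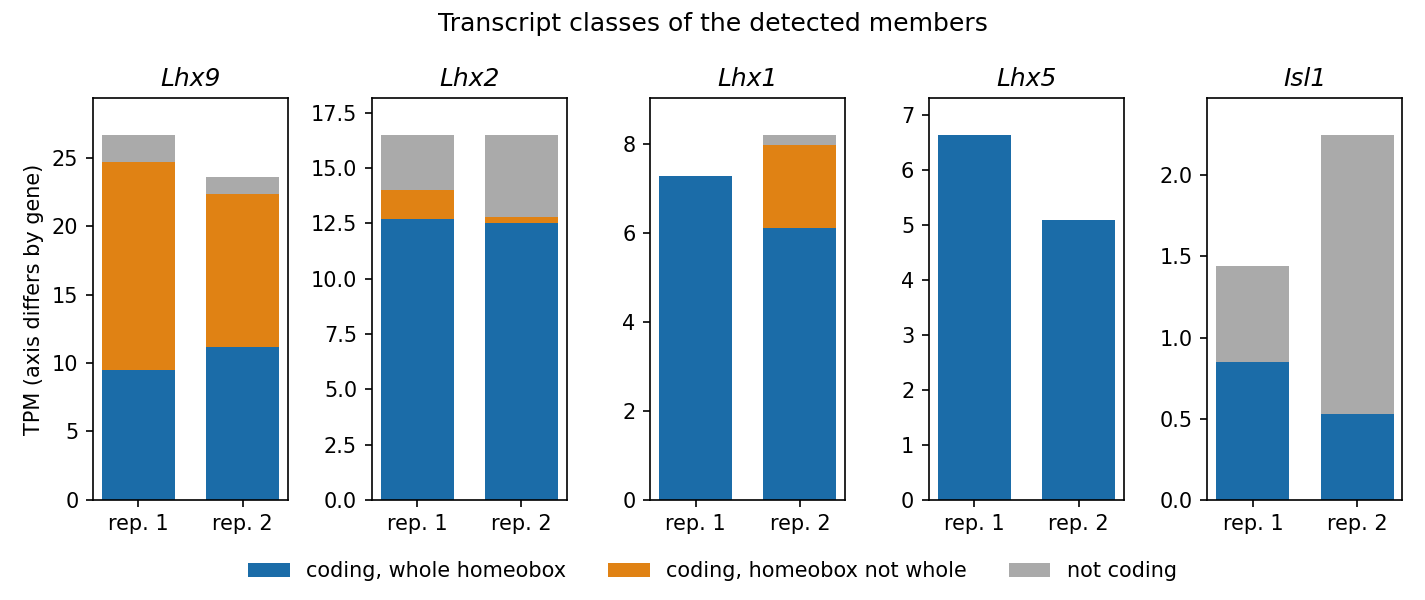
TPM of the 5 detected members in each library, divided into coding transcripts with the whole homeobox (blue), coding transcripts without it (orange) and transcripts annotated as noncoding (grey), each gene on its own linear axis. The orange part is 56.8% and 47.2% of Lhx9, and the blue part of Isl1 stays below 1 TPM in both libraries.

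For the low members the transcript tables rest on few counts. All 16 Lhx3 counts of replicate 2 were on Lhx3-203, a retained-intron transcript, and the 1 count of replicate 1 was on the coding Lhx3-202. The 3 counts of Isl2 were on Isl2-202, annotated as a target of nonsense-mediated decay. The 18 counts of Lhx8 were on a transcript of M4 that M21 does not list. In Lhx6, Lhx6-204 had 61.78 and 0 counts in the libraries, while Lhx6-202 had 29.22 and 49.00. The leading transcript was the same in both libraries for 4 of the 9 members with more than 1 transcript: Lhx1, Lhx2, Lhx4 and Lhx9.

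Within the 5 pairs of relatives, both genes were detected in 2 pairs, Lhx2 with Lhx9 and Lhx1 with Lhx5. A pair was called where each library put the same gene ahead by 2-fold or more on TPM + 0.1, and 2 of 5 were. Isl1 was above Isl2 by 3.58 and 4.56 on the log2 scale, a mean of 4.07 ± 0.70 (SD, n = 2). Isl2 had 3 and 0 counts, so the size of this ratio is set by the pseudocount, and the mean was 1.48 with 1 TPM and 6.51 with 0.01 TPM. Lhx4 was above Lhx3, whose log2 ratio to Lhx4 was -1.93 and -1.82, a mean of -1.88 ± 0.08 (n = 2). With a pseudocount of 1 TPM the Lhx3 and Lhx4 pair was no longer called, at a mean of -0.44, since both genes lie far below 1 TPM.

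The pairs with high genes on both sides were not called. Lhx2 lay below Lhx9 by log2 ratios of -0.69 and -0.51, a mean of -0.60 ± 0.13 (n = 2). Lhx1 lay above Lhx5 by 0.13 and 0.68, a mean of 0.40 ± 0.39 (n = 2), about as large as its spread. Lhx6 and Lhx8 gave 2.32 in replicate 1 and 0.14 in replicate 2, so the libraries differed on whether Lhx6 was the higher by 2-fold. On coding transcripts with the whole homeobox this pair gave 2.35 and 1.07, past 2-fold in both. That measure leaves out the 18 Lhx8 counts of replicate 2, which lay on a transcript that M21 does not list.

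**Figure D4:**
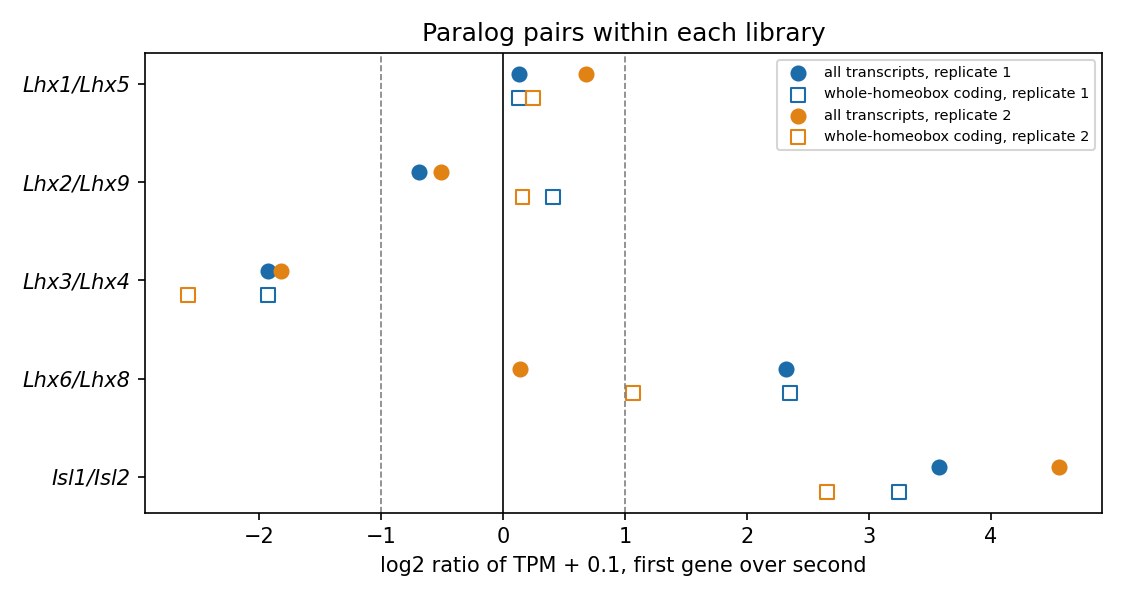
Log2 ratio of TPM + 0.1 of the first gene over the second for each pair of relatives, in replicate 1 (blue) and replicate 2 (orange), over all transcripts (filled circles) and over coding transcripts with the whole homeobox (open squares), with dashed lines at 2-fold. The Lhx2 and Lhx9 pair changes side, from -0.69 and -0.51 to 0.41 and 0.16, and the Isl1 and Isl2 pair stays past 2-fold on both measures. The open squares of Lhx6 and Lhx8 leave out the Lhx8 counts, which lay on a transcript that M21 does not list.

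The 5 detected members differed by less than 2-fold between the isolates. For this comparison counts were scaled for depth by the trimmed mean of M-values (TMM), and ratios are replicate 2 over replicate 1 with an exact binomial 95% interval, which covers counting error only. The log2 ratio was -0.07 for Lhx9 (-0.11 to -0.03), 0.20 for Lhx2 (0.12 to 0.28), 0.32 for Lhx1 (0.22 to 0.41), -0.10 for Lhx5 (-0.21 to 0.01) and 0.26 for Isl1 (-0.04 to 0.57). On TPM the log2 ratio was -0.18 for Lhx9, 0.00 for Lhx2, 0.17 for Lhx1, -0.38 for Lhx5 and 0.64 for Isl1, beside a median of -0.27 over all detected genes. Scaled by spike-in totals, Lhx9 and Lhx5 changed sign, to 0.10 and 0.07.

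Of the 9 members that reached 10 counts over both libraries, 3 were past 2-fold, all with low counts. Lhx6 was lower in replicate 2 by a log2 ratio of -1.49 (-2.03 to -0.98). Lhx3, at 1 and 16 counts, was higher with a log2 ratio of 2.86 (0.71 to 8.79), and Lhx8, at 0 and 18 counts, was higher with a lower 95% limit of 1.53 on the log2 scale. Over all 18554 genes that did so 17.0% were past 2-fold. Among the 4878 of these genes with a sum under 200, the class of these 3 members, the share was 55.2%. Among the 13676 genes at 200 or more it was 3.33%, and none of the 6 members in that class was past 2-fold. Ratios past 2-fold were thus common at such counts.

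**Figure D5:**
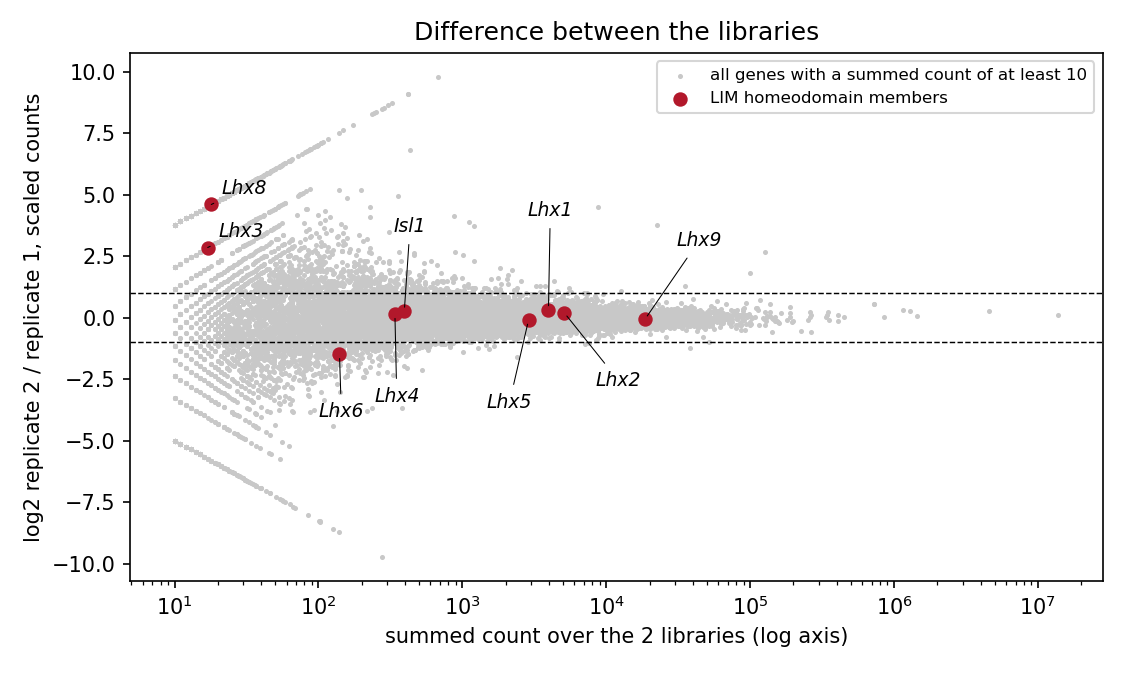
Log2 ratio of TMM-scaled counts + 0.5, replicate 2 over replicate 1, against the summed count (log axis) for all genes that reached a sum of 10 (grey) and the members (red), with dashed lines at 2-fold. Lhx3 and Lhx8 lie above the band and Lhx6 below it, all on the left where counts are low, and the height of Lhx8 is set by the added 0.5 because replicate 1 had no count.

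Some markers of neighbouring regions also differed between the libraries, and their part in the members' ratios was not tested. For scale, 53.7% of protein-coding genes were detected, and 17.0% of all tested genes were past 2-fold. That share was 55.2% at a summed count under 200 and 3.33% at 200 or more. Of 14 hindbrain and spinal cord genes none was detected, their TPM summed to 2.95 in replicate 1 and 9.58 in replicate 2, and 9 of 13 tested were higher by 2-fold in replicate 2 with a median log2 ratio of 2.57. At the highest mean, 1.06 TPM, stood both Hoxd3, with 0 and 174 counts, and Evx2, with 409 and 427 counts. Evx2 and Evx1 were lower in replicate 2, with log2 ratios of -0.54 and -0.88, short of 2-fold. Of 9 cerebellar genes 5 were detected, 6 of 9 were higher by 2-fold in replicate 2, and TPM summed to 44.9 and 62.6. Of 8 motor neuron genes 2 were detected, Prph at 2.07 and 2.04 TPM and Slc5a7 at 1.1 and 1.00 TPM. Of the 7 tested 3 were higher by 2-fold in replicate 2, and Mnx1, a defining motor neuron factor, had 0 counts in both libraries. Of 12 telencephalic genes 2 were detected, led by Bcl11b at 11.77 and 10.41 TPM, and of 11 tested 4 were higher and 1 lower in replicate 2. Of 12 hypothalamic genes 1 was detected, Avp at 2.28 and 2.23 TPM, with 3 higher and 2 lower of 11 tested.

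Other lists that share a setting with a member were as follows, beside detection of 53.7% of protein-coding genes. The shares of all tested genes past 2-fold are those given above. Whether the listed genes came from the named tissues was not tested. Of 11 pituitary genes, a tissue where Lhx3 and Lhx4 act, none was detected, and those with 0 counts in both libraries included Pou1f1, Prl, Tshb, Cga and Fshb. Of 5 pineal genes none was detected, Asmt had 0 counts, and 3 of 4 tested were lower by 2-fold in replicate 2. Of 8 sensory ganglion genes, cells that make Isl1 and Isl2, none was detected, and 3 were higher and 1 lower of 7 tested. Of 7 thalamic genes 6 were detected, led by Calb2 at 22.45 and 23.02 TPM, and 1 was higher by 2-fold in replicate 2. Of 9 genes of ventral forebrain interneurons 8 were detected, led by Sst at 110.52 and 115.94 TPM, genes that other inhibitory neurons make too. The gene not detected, Nkx2-1, stood at 0.04 and 0.30 TPM, and Lhx6 stayed below 1 TPM. All 18 midbrain genes listed were detected, against 53.7% of protein-coding genes, and none was past 2-fold between the libraries. They were led by Meis2, Tfap2b at 22.16 and 15.83 TPM and Otx2 at 18.32 and 15.89 TPM. The list was chosen with earlier results of these data known, so its detection is no test of the tissue label.

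Lmx1b and Lmx1a, factors of dopamine neurons, lay between Isl1 and Lhx4 by mean level. Lmx1b stood at 1.49 TPM on 515 counts and 1.54 TPM on 984 counts. Lmx1a stood at 0.83 and 1.16 TPM and so missed detection in replicate 1, with a log2 ratio of 0.75 (0.50 to 1.00).

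The partners of the family were all present. Each of 10 cofactor genes was detected, against 53.7% of protein-coding genes. None was past 2-fold between the libraries, against 3.33% of all genes with a summed count of 200 or more, the class of these cofactors. The adaptors summed to 33.5 TPM in replicate 1 and 30.6 in replicate 2, with Ldb1 at 26.83 and 26.05 TPM and Ldb2 at 6.64 and 4.55 TPM. That is less than the 61.7 and 59.2 TPM of the 12 LIM homeodomain genes. The Ssbp partners, which stabilise the adaptors, summed to 98.7 and 89.6 TPM, with Ssbp3 at 37.58 and 31.51, Ssbp4 at 36.60 and 37.48 and Ssbp2 at 24.56 and 20.64.

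The Lmo genes, whose products compete for the adaptors, summed to 88.3 and 67.7 TPM, more than the LIM homeodomain genes in both libraries. Lmo3 was the highest at 41.91 and 26.51 TPM, followed by Lmo4 at 22.76 and 24.52, Lmo1 at 18.93 and 13.67 and Lmo2 at 4.73 and 2.95. Rlim, a ubiquitin ligase that acts on the adaptors, stood at 10.08 and 6.92 TPM. These are RNA levels, as shares of the transcript molecules in a library, and say nothing of protein amounts.

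Noncoding genes beside Lhx1 and Lhx5 were expressed at levels close to those of their neighbours. Of 8 annotated genes that overlap a member or start within 5 kb of its start, 7 lie on the opposite strand and 2 had counts. Lhx1os (chr11:84525660-84535831, plus strand), a lincRNA whose start lies 125 bases from that of Lhx1 in the opposite direction, stood at 7.70 TPM on 158 counts and 5.54 TPM on 217 counts, beside 7.29 and 8.22 TPM for Lhx1. Gm27199 (chr5:120419659-120431767, minus strand), an antisense gene that overlaps Lhx5 by 69 bases at its start, stood at 5.39 TPM on 131 counts and 3.92 TPM on 176 counts, beside 6.65 and 5.10 TPM for Lhx5. Their log2 ratios between the libraries were -0.15 and -0.18, both short of 2-fold. The libraries keep strand per the labels, but whether the authors' counting used it is not stated, so reads in the shared 69 bases may not be divided between Lhx5 and Gm27199. Without counts in either library were Gm27197 and Gm13584 at Lhx2, Gm27196 at Lhx3, Gm27953 at Lhx6, AI606473 at Lhx8 and Gm17226 at Isl2.

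The stretch between the Lhx1 and Lhx1os starts is shown because both genes are read away from it. It is given from the RefSeq promoter table (build GRCm38.p6) on the strand of Lhx1, 5′ to 3′, with the match to the motif CCAAT, here its reverse complement ATTGG, in capitals.
Lhx1 to Lhx1os, chr11:84525536-84525659, minus strand: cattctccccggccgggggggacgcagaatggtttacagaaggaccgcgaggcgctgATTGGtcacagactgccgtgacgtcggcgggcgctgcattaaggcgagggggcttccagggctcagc
These 124 bases were 66.1% G or C and held 12 CpG pairs. Of the 10 members 9 had at least 1 promoter in the table, 13 promoters of 300 bases in all, with a median GC of 65.7% against 52.7% over all 32851 promoters, and a median of 19 CpG against 7. CCAAT was found on either strand in 6 of the 13 against 37.4% of all promoters, TATAAA in 2 against 13.6%, and TAATTA, a core that homeodomains bind, in 0 against 5.29%. A match is a run of letters and not a measured site.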

How the data were processed

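Total RNA of newborn midbrain was sequenced in 2 libraries, which form 1 group, with depths of 46685706 and 72779229 counts. Per the notes deposited with each sample, genes and transcripts were quantified on mm10 with GENCODE M4. Which program was run, and its strand setting, is not given in the sources used here. Expected counts, as the authors deposited them, need not be whole, and the authors also deposited TPM and FPKM values per gene and transcript. The authors' tables also give each transcript's percent of its gene, and credibility bounds of TPM, used here as a signal with its range, whose level is not stated. The TPM scale includes structured RNAs and mitochondrially encoded genes. Protein-coding genes, without the mitochondrially encoded, clustered histone and globin genes, held 20.5% and 17.5% of it. Symbols, coordinates, transcript sequences and classes came from GENCODE M21 (GRCm38), which matched 42462 of 43346 genes and 45 of the members' 49 transcripts, 43 at the same length.

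Counts were rounded and scaled by TMM (edgeR 4.0.16), with factors of 1.01 and 0.987, and ratios used a pseudocount of 0.5 counts. The ratio step was tested on simulated data that held counting error only, so the test covers the calculation and not the spread between isolates. Chi-square per degree of freedom between the libraries was 51.4, so they are not 1 library deposited again. No p-value is given, since there is 1 group. Intervals and floors cover counting error only, because the libraries have no molecular identifiers and copies of a molecule may be counted again. A transcript carries the whole homeobox where it holds all 180 bases of the gene's reference transcript. Alternatives were other thresholds, pseudocounts, units and scalings (among them DESeq2 1.42.0 size factors), coding transcripts only, and each library alone.

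The members, lists and alternatives were chosen with earlier results of these data known. Named by rule were the members, Lmx1a, Lmx1b, all cofactors, up to 3 genes by mean TPM and those at 0 counts of each other list, and genes overlapping a member or starting within 5 kb of it. No gene was named for a similar pattern, since 2 libraries give no correlation. Of the homeobox and sensory lists, Drgx had no match. Some genes that the rule names are left out of the text.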

Additional observations from a re-analysis of the deposited data

How the results depend on the processing

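The number of members detected ranged from 4 (at 2 TPM, or with coding transcripts alone) to 6 (TPM rescaled to protein-coding genes), against 5, and was 5 in each library alone. The number of pairs called, 2, became 1 with a pseudocount of 1 TPM and 3 with coding transcripts alone. It was 4 with counts not corrected for length, and 2 to 3 in single libraries. In the Lhx2 and Lhx9 pair the mean log2 ratio turned from -0.60 to 0.29 on coding transcripts with the whole homeobox. On all coding transcripts it was -0.81. The number of members past 2-fold between the libraries, 3, became 1 with TPM ratios and a pseudocount of 0.1. The log2 ratios of Lhx9 and Lhx5 turned to 0.10 and 0.07 on spike-in totals. Of the 10 places in the order of members, 6 to 10 were kept in single libraries and 5 on whole-homeobox coding transcripts, an alternative added after seeing the data. Genes detected over the other lists, 53, numbered 58 to 60 in single libraries. No paired analysis was possible because there is 1 group. The cause of these changes was not tested. For Lhx8, Lhx3 and Isl2, with 0 to 18 counts a library, depth limits the precision.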
